A study of Mus musculus with 10 samples.

Results

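Expression of 37 genes of the autophagy machinery and of its transcriptional regulators TFEB and TFE3 was compared between hypHSCs and qHSCs. The genes were taken by symbol from the deposited table, which holds 25233 entries with a gene symbol, and all 37 were found in it. They comprise 5 genes of the ULK kinase complex, 6 of the class III PI3-kinase complexes, 5 for lipid supply and PI3P reading, 9 for ATG8 conjugation and processing, 5 of the ATG8 family, 5 cargo receptors, and *Tfeb* and *Tfe3*.

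In autophagy, a cup-shaped membrane grows around cytoplasm, closes into an autophagosome and fuses with the lysosome, where its content is degraded. The ULK kinases start the process, the PI3-kinase marks the membrane with the lipid PI3P, and a conjugation system couples ATG8 proteins (LC3 and GABARAP) to it, which cargo receptors then bind. TFEB and TFE3 switch on autophagy and lysosome genes when the nutrient-sensing kinase mTORC1 no longer holds them in the cytoplasm. In hepatic stellate cells, autophagy is known for its part in the breakdown of lipid droplets.

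The 10 libraries came from livers of male C57BL/6J mice. The 5 hypHSC preparations were from animals fed the CDAHFD, which is high in fat, lacks choline and leads to steatohepatitis with fibrosis. The diet had lasted 13 weeks in hypHSC 1 and 2 (age 19 weeks) and 12 weeks in hypHSC 3 to 5 (age 18 weeks). The 5 qHSC preparations were from animals on a standard diet, aged 36 weeks (qHSC 1, 2 and 5) or 34 weeks (qHSC 3 and 4). Cells were separated on a density gradient and sorted without antibodies, hypHSCs by green and qHSCs by blue natural fluorescence. The paper reports bacterial contamination of cell preparations from CDAHFD livers but not from standard diet livers. It added antibiotics to the buffers of the CDAHFD preparations, except the perfusion buffer. Diet, age, digestion conditions, antibiotics, bacteria and sorting gate changed together and cannot be told apart. The hypHSC preparations were chosen by RNA quality from a larger set with several samples per mouse, so n counts preparations, and p-values measure the spread between preparations. All p-values below, unless an exact permutation test is named, are Benjamini-Hochberg adjusted p-values from limma over all genes tested.

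Genes with a symbol drew between 30534719 and 43283589 reads in hypHSCs and between 35640104 and 47317028 in qHSCs, and values are normalized counts (reads divided by the size factor of the library). The marker genes went against the label of the hypHSC libraries. All 12 quiescent HSC markers were lower in hypHSCs, with a summed level of 23553 to 55259 against 890656 to 1272220 normalized counts, and none was at the detection floor of 3 reads in every library of either group. All 14 macrophage markers were higher, with a summed level of 1145850 to 1659700 against 6399 to 140624, and within qHSCs the highest sums were those of qHSC 1 (61960.3) and qHSC 4 (140624). "hypHSC" is therefore used below as the label of the libraries. These were bulk samples, in which fewer cells of a type and less RNA per cell cannot be told apart.

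A gene counted as a DEG when its log2 fold change was 1 or more in either direction with an adjusted p no higher than 0.05. All 37 autophagy genes passed the filter on low values and 8 of them (21.6%) were DEGs. The share over all 14630 genes tested was 39.5%, with 17.8% higher and 21.7% lower in hypHSCs. *Tfeb*, *Gabarap*, *Atg3* and *Tfe3* were higher in hypHSCs, and *Wipi1*, *Map1lc3a*, *Calcoco1* and *Pik3r4* were lower. At any fold, 12 of the 37 had an adjusted p of at most 0.05, against 48% of all genes tested. The libraries of both groups did not overlap for 12 genes (32.4%), 5 higher and 7 lower in hypHSCs, against 39.5% of all genes tested (17.6% higher and 22% lower). The median log2 fold change was -0.091 over the autophagy genes and -0.20 over all genes tested, and the median of the absolute log2 fold change was 0.58 against 1.02.

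**Figure D1:**
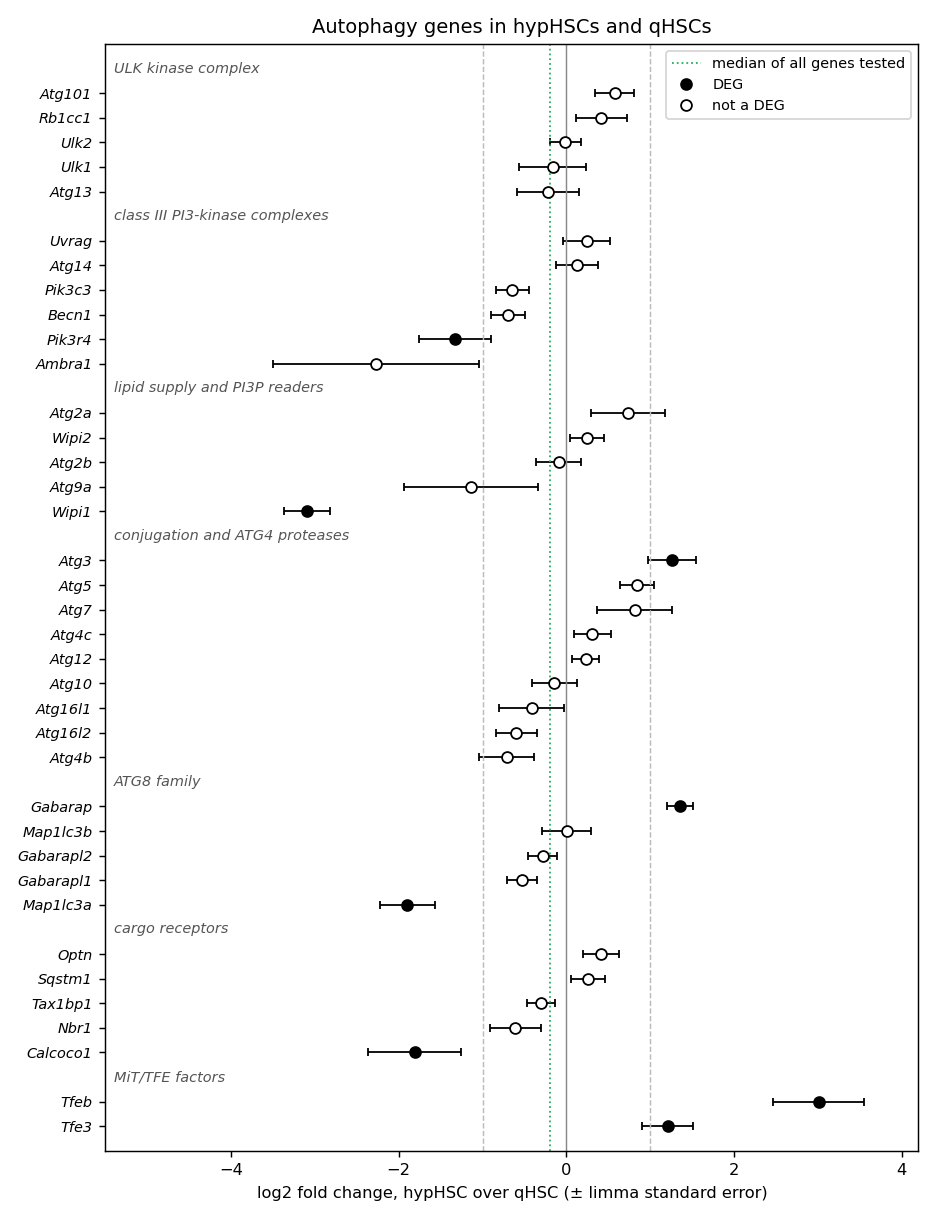
Log2 fold change (hypHSC over qHSC, x axis) of each of the 37 autophagy genes, grouped by role on the y axis, with the limma standard error as bars. Filled points are the 8 DEGs, dashed lines stand at log2 fold changes of 1 and -1 and the dotted line at the median of all genes tested (-0.20). The points spread to both sides in most roles, from -3.09 for *Wipi1* to 3.01 for *Tfeb*.

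Among the hypHSC libraries, hypHSC 5 stood apart for these genes. It was the lowest of its group for 17 of the 37 genes, as qHSC 3 was in its own group. hypHSC 5 was also the highest for 10 genes, against 2 for qHSC 3. Transcript GC content moved with this: over the 37 genes, the Spearman correlation of GC content with the deviation from the other 4 libraries was -0.65 in hypHSC 5 and -0.21 in hypHSC 4, and 0.55, 0.58 and 0.42 in hypHSC 1, 2 and 3. Over 14233 genes it was -0.34, -0.13, 0.27, 0.29 and 0.23 in the same order. In qHSCs it lay between -0.08 and 0.09 over the autophagy genes. These are correlations across genes of a library, which share its depth and preparation. The deviations of a gene cancel out within its group, so the correlations of the libraries of a group depend on each other. hypHSC 5 also had reads on the fewest genes (14028, against 14949 to 16634 in the other hypHSCs) and the largest sum of hepatocyte markers (113327 normalized counts, against 12695 to 58026 in the other hypHSCs and 24857 to 89054 in qHSCs). Mitochondrial entries held 12.8%, 7.27%, 3.103%, 2.21% and 3.42% of the reads in hypHSC 1 to 5 and 1.25% to 1.61% in qHSCs, without overlap. The part of mitochondrial reads and hepatocyte RNA in the results was not tested. The part of GC content in the results was not tested beyond the values given beside them.

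**Figure D2:**
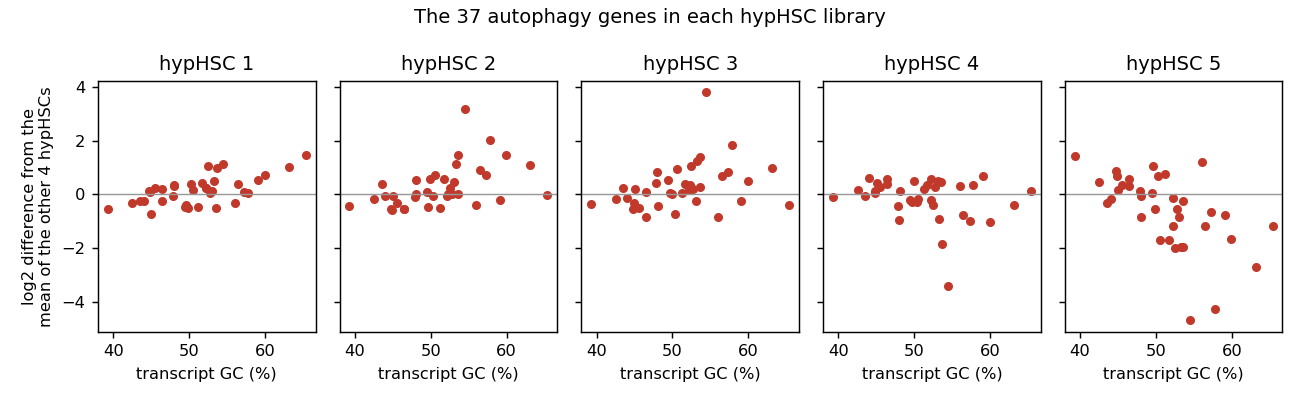
Each point is an autophagy gene in a hypHSC library, with the GC content of its transcript in % on the x axis and its log2 difference from the mean of the other 4 hypHSC libraries on the y axis. The points rise with GC content in hypHSC 1 to 3 (Spearman 0.42 to 0.58) and fall in hypHSC 5 (-0.65). The differences of a gene cancel out over the libraries, so the panels depend on each other.

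Palindromic CACGTG, the E-box core that TFEB and TFE3 bind, was searched for in RefSeq promoters (GRCm38.p6, 250 bases before to 50 after the transcription start). Of the 31 autophagy genes with a promoter in that set, 4 (12.9%) held the core, *Atg3*, *Atg5*, *Atg7* and *Atg14*, against 8.09% of 27025 genes. With GT before the core or AC after it, the longer form of the TFEB motif, 3 genes held it (9.68%), *Atg3*, *Atg7* and *Atg14*, against 2.55% of genes. The palindrome reads alike on both strands, and the longer form contains the core. A match describes the letters and says nothing of binding. *Atg3* was the only DEG among them and held the core at 2 places, so the 250 bases before its start (chr16:45158579-45158828, plus strand, GRCm38.p6) are shown whole. The other 3 are shown as 30 bases around the core: *Atg5* at chr10:44268313-44268342 (plus strand), *Atg7* at chr6:114670952-114670981 (plus strand) and *Atg14* at chr14:47568418-47568447 (minus strand). Capitals mark the core.
Atg3: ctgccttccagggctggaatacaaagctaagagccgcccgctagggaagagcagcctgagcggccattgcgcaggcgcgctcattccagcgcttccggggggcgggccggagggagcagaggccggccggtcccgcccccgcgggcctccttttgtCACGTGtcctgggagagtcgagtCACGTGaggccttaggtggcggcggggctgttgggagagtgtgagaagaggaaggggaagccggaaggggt
Atg5: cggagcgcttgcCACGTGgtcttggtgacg
Atg7: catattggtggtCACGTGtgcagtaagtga
Atg14: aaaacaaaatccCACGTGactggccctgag
The 31 genes had 37 promoters in that set, and a gene counted if any of its promoters held the core. Each start is that of the promoter with the core, which can be an alternative start of the gene. The core began 94 and 71 bases before the start of *Atg3*, 14 before that of *Atg5*, 132 before that of *Atg7* and 1 before that of *Atg14*. The log2 fold changes of these genes were 1.26, 0.84, 0.81 and 0.12 in the same order, and the last 2 did not pass the test.

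The ULK kinase complex held no DEG. It joins the kinases *Ulk1* and *Ulk2* with *Atg13*, the scaffold *Rb1cc1* (FIP200) and *Atg101*, a partner of *Atg13*. *Ulk1* had 212, 279.5, 247, 110.2 and 87.7 normalized counts in hypHSC 1 to 5 and 239.8, 301, 134, 179 and 145 in qHSC 1 to 5. *Ulk2* had 605, 590.1, 791, 485 and 667 against 756, 587, 575, 593 and 633. Both kinases overlapped between the groups, with log2 fold changes of -0.16 ± 0.40 and -0.014 ± 0.19 (limma SE, n = 5 per group, as in all values below), and the sign of each depended on the processing: *Ulk1* was 0.072 without hypHSC 5 and *Ulk2* was 0.11 with equal upper quartiles. *Atg101* was the member nearest to the threshold, with 3902, 2589, 2502, 4195 and 1872 against 1669.9, 1887, 1690.3, 2096 and 2419. Its hypHSC libraries were above all qHSCs except hypHSC 5, which lay below qHSC 2, 4 and 5 (log2 fold change 0.58 ± 0.23, adjusted p = 0.0609). *Rb1cc1* had 439 to 565 in hypHSC 1 to 4 and 1336 in hypHSC 5, against 357 to 502 in qHSCs (0.42 ± 0.30, adjusted p = 0.278). *Rb1cc1* has the lowest GC content of the 37 transcripts (39.3%). *Atg13* ranged from 451 in hypHSC 5 to 1973 in hypHSC 3 and from 1019.5 to 1842 in qHSCs (-0.22 ± 0.37). Of the exon bases of *Atg13*, 55.2% lie under the opposite-strand gene *Arhgap1*, and the unstranded libraries cannot assign those reads.

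Of the 6 genes of the class III PI3-kinase complexes, *Pik3r4* was the only DEG, and *Becn1* and *Pik3c3* passed the p threshold below the fold threshold, all 3 lower in hypHSCs. *Pik3c3* (VPS34) is the kinase that makes PI3P, *Pik3r4* (VPS15) its regulatory subunit and *Becn1* (Beclin 1) the scaffold. *Pik3r4* (chr9:105520177-105564854, mm39) had 399, 251, 398, 176 and 72.6 normalized counts in hypHSC 1 to 5 and 639.9, 646, 479, 569 and 455 in qHSC 1 to 5. Every hypHSC library lay below every qHSC library, hypHSC 5 farthest, with a log2 fold change of -1.33 ± 0.43 (adjusted p = 0.0244). *Pik3r4* was no longer a DEG without hypHSC 4 (-1.25), hypHSC 5 (-0.93), qHSC 1 (-1.27) or qHSC 2 (-1.27). *Becn1* had 1838, 2645, 3066, 3516 and 3054 against 3709, 4658, 4129, 4116 and 6137. The groups of *Becn1* did not overlap, at a fold change under the DEG threshold (-0.70 ± 0.21, adjusted p = 0.0158). Of the exon bases of *Becn1*, 54.1% lie under the opposite-strand gene *Cntd1*, which had 0.83 to 41.2 normalized counts. *Pik3c3* had 694, 584, 834, 978 and 948 against 1315, 1402, 968, 1245 and 1318, with hypHSC 4 just above qHSC 3 (-0.64 ± 0.19, adjusted p = 0.0172). With the hypHSCs at 12 weeks of diet alone, the adjusted p was 0.0705 for *Becn1* (-0.48) and 0.0859 for *Pik3c3* (-0.43), and with equal upper quartiles it was 0.0587 and 0.0697.

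*Atg14* and *Uvrag*, which take turns in the complex and direct it to autophagosomes and to endosomes, did not pass the test. *Atg14* ranged from 279 to 493 in hypHSCs and from 248 to 441 in qHSCs (0.12 ± 0.25). *Uvrag* ranged from 149.7 to 324 against 153 to 242 (0.24 ± 0.28). The groups overlapped for both genes. *Ambra1*, whose protein binds Beclin 1, was the least abundant of the 37 per length, at 0.204 ± 0.244 FPKM in hypHSCs and 0.370 ± 0.110 in qHSCs (mean ± SD, n = 5). It had 24.3, 77.6, 111, 1.05 and 0 normalized counts in hypHSC 1 to 5 and 57.9, 98.0, 50.4, 47.9 and 80.2 in qHSCs. hypHSC 4 and 5 were below the floor of 3 reads (3.15 and 4.54 normalized counts), whereas hypHSC 2 and 3 lay within or above the range of qHSCs, and the gene did not pass the test (adjusted p = 0.150).

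Among the genes for lipid supply and PI3P reading, *Wipi1* showed the largest fall of the 37 genes. The WIPI proteins bind PI3P on the growing membrane. *Wipi1* (chr11:109464158-109502259, mm39) had 268, 238, 289, 328 and 123 normalized counts in hypHSC 1 to 5 and 2227, 2773, 1656, 1701 and 1958 in qHSC 1 to 5. The highest hypHSC library, hypHSC 4, was far under the lowest qHSC library, qHSC 3, and the log2 fold change was -3.09 ± 0.28, or 8.53-fold lower (adjusted p = 6.65e-06). It stayed between -3.21 and -2.86 when any library was left out. Its relative *Wipi2*, which recruits ATG16L1 to the membrane, had 1011, 857, 961, 790.0 and 819.8 in hypHSCs and 764, 880.2, 776, 898 and 488 in qHSCs. The groups of *Wipi2* overlapped (0.25 ± 0.20, adjusted p = 0.330). Per length, *Wipi1* stood at 30.4 ± 6.55 FPKM and *Wipi2* at 4.56 ± 1.09 in qHSCs, and at 2.93 ± 1.02 and 4.17 ± 0.818 in hypHSCs, where their SD ranges overlapped.

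The lipid transfer proteins ATG2A and ATG2B and the lipid scramblase ATG9A feed the membrane, and none of their genes was a DEG. *Atg2a* had 466, 712, 415, 176 and 124 normalized counts in hypHSC 1 to 5 and 228, 172, 183, 186 and 178 in qHSC 1 to 5. hypHSC 1, 2 and 3 exceeded all qHSCs and hypHSC 5 was below all of them (0.73 ± 0.44, adjusted p = 0.194). *Atg2a* was a DEG without hypHSC 5 (1.06), with DESeq2 on the recovered reads (1.03) and after GC correction (1.14), an alternative added after the data had been seen. *Atg9a* had 144, 434, 389, 171 and 12.1 against 308, 362, 319.6, 266 and 297. It was above the qHSC range in hypHSC 2 and 3 and below it in hypHSC 1, 4 and 5 (-1.14 ± 0.80, adjusted p = 0.262). The log2 fold change of *Atg9a* was -0.28 without hypHSC 5, -0.39 with DESeq2 and -0.38 with edgeR, and 40.4% of its exon bases are shared with the same-strand lncRNA *Gm29253*. *Atg2b* ranged from 285 to 387 in hypHSC 1 to 4, was 675 in hypHSC 5 and ranged from 354 to 484 in qHSCs (-0.091 ± 0.27).

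In the conjugation system, *Atg3* was the DEG and *Atg5* passed the p threshold below the fold threshold. ATG7 activates ATG8 and ATG12, ATG3 carries ATG8 to the lipid, ATG10 carries ATG12 to ATG5, and the ATG12-ATG5-ATG16L1 complex sets the place of lipidation. *Atg3* (chr16:44979184-45008901, mm39) had 966, 635, 546, 1192 and 1196 normalized counts in hypHSC 1 to 5 and 382, 407, 427, 406 and 221 in qHSC 1 to 5. All hypHSCs were above all qHSCs, with a log2 fold change of 1.26 ± 0.29 (adjusted p = 0.00403). *Atg3* was no longer a DEG when libraries were scaled to the same total (0.91) or to 3 reference genes (0.32, adjusted p = 0.477). The opposite-strand gene *Slc35a5*, which covers 23.6% of the exon bases of *Atg3*, had 240.5 to 1001 normalized counts in hypHSCs and 1256 to 1964 in qHSCs. *Atg5* had 1528, 1062, 1223, 1575 and 2146 against 812, 998, 738, 712 and 847. These groups did not overlap either (0.84 ± 0.21, adjusted p = 0.00613), and only the scaling to 3 reference genes turned the sign (-0.096).

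*Atg7* split the hypHSC libraries. It had 1781, 2524, 2689, 802 and 452 normalized counts in hypHSC 1 to 5 and 775, 789.8, 675, 914 and 689 in qHSC 1 to 5. hypHSC 1 to 3 were above every qHSC library, hypHSC 4 was within their range and hypHSC 5 below it, and the gene did not pass the test (0.81 ± 0.45, adjusted p = 0.155). *Atg7* was a DEG without hypHSC 5 (1.21), with DESeq2 or edgeR on the recovered reads (1.14 with each) and after GC correction (1.11). *Atg12* was 2531 to 2762 in hypHSC 1, 2, 3 and 5 and 4013 in hypHSC 4, against 2194 to 2746 (0.23 ± 0.16), and *Atg10* was 231 to 509.7 against 255 to 434 (-0.14 ± 0.27). *Atg16l1* was low, with 46.9 to 99.7 against 49.8 to 131 (-0.41 ± 0.39). *Atg16l2*, its relative, had 163, 301, 219, 288 and 160.3 against 323, 347, 329, 306 and 348. The groups of *Atg16l2* did not overlap, but the adjusted p was 0.0698 (-0.59 ± 0.25).

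The ATG4 proteases trim ATG8 proteins before conjugation and release them afterwards. *Atg4b* had 1087, 1182, 1074, 1046 and 333 normalized counts in hypHSC 1 to 5 and 1609, 1506, 1312, 1191 and 1503 in qHSC 1 to 5. hypHSC 1 to 4 lay close together and just below the lowest qHSC, qHSC 4, while hypHSC 5 was far lower (-0.71 ± 0.32, adjusted p = 0.0912). *Atg4c* was 702 to 1049 against 538 to 1026 in qHSCs (0.31 ± 0.22). Of the exon bases of *Atg4c*, 30.6% lie under the opposite-strand lncRNA *Gm70302*.

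The ATG8 family changed its make-up. *Gabarap* was higher and *Map1lc3a* lower in hypHSCs, and *Map1lc3b*, the most abundant member, did not pass the test. *Gabarap* (chr11:69882196-69885775, mm39) had 39905, 33562, 26258, 35616 and 32527 normalized counts in hypHSC 1 to 5 and 13928, 12249, 12448, 13513 and 12742 in qHSC 1 to 5. The groups lay well apart, with a log2 fold change of 1.36 ± 0.16, or 2.57-fold (adjusted p = 3.7e-05). *Map1lc3a* (chr2:155118284-155119993, mm39) had 899, 389, 313, 424 and 203 against 1558, 1439.95, 1293, 1482 and 1579. Every hypHSC library was below every qHSC library, hypHSC 1 the least so (-1.90 ± 0.33, adjusted p = 0.000678). *Map1lc3a* has the highest GC content of the 37 transcripts (65.4%), and its log2 fold change was -1.5 after GC correction.

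*Map1lc3b* had 30779.8, 29217, 23037, 43728 and 71814 normalized counts in hypHSC 1 to 5 and 35712, 38271, 30725, 35082 and 43739 in qHSC 1 to 5. hypHSC 5 was above and hypHSC 2 and 3 below all qHSCs, and the log2 fold change was 0.0028 ± 0.29 (adjusted p = 0.994). Its value is uncertain, since 59.4% of the 59-base stretches of its transcript, the read length, occur elsewhere in the genome. *Gabarapl1* had 9755, 9573, 10642, 11058 and 6969.5 against 14355, 14652, 10237, 14548 and 15095. It was lower in hypHSCs than in all qHSCs but qHSC 3 (-0.53 ± 0.18, adjusted p = 0.0301), but it no longer passed under many alternatives. The adjusted p was 0.270 after GC correction, 0.0717 with the hypHSCs at 12 weeks alone, 0.0672 with equal upper quartiles and 0.0617 with edgeR. It was 0.0505 without hypHSC 2, and 0.0672, 0.0696, 0.0659 and 0.0712 without qHSC 1, 2, 4 and 5. The antisense lncRNA *1700101I11Rik* covers 30.5% of the exon bases of *Gabarapl1* and cannot be told apart from it there. *Gabarapl2* was 3262 to 5224 in hypHSCs and 4341 to 5645 in qHSCs (-0.28 ± 0.17, adjusted p = 0.206), and 40.5% of its 59-base stretches are repeated.

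Per length, *Map1lc3b* was the highest of the 37 genes in both groups, at 1031 ± 394 FPKM in hypHSCs (rank 74 of 23185 genes) and 1255 ± 98.3 in qHSCs (rank 45). In qHSCs *Gabarap* (225 ± 17.3 FPKM) and *Gabarapl1* (230.2 ± 26.8 FPKM) did not differ beyond their SD. In hypHSCs *Gabarap* stood at 453 ± 62.5 FPKM and *Gabarapl1* at 127 ± 29.8 FPKM. Of the summed FPKM of the 5 genes, *Gabarap* held 34.0%, 31.8%, 30.4%, 25.6% and 17.3% in hypHSC 1 to 5 and 10.3% to 13.7% in qHSCs. Every hypHSC library had a larger share of *Gabarap* than every qHSC library, hypHSC 5 by the least. *Map1lc3a* held 0.231% to 1.64% in hypHSCs and 2.74% to 3.09% in qHSCs, again without overlap.

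**Figure D3:**
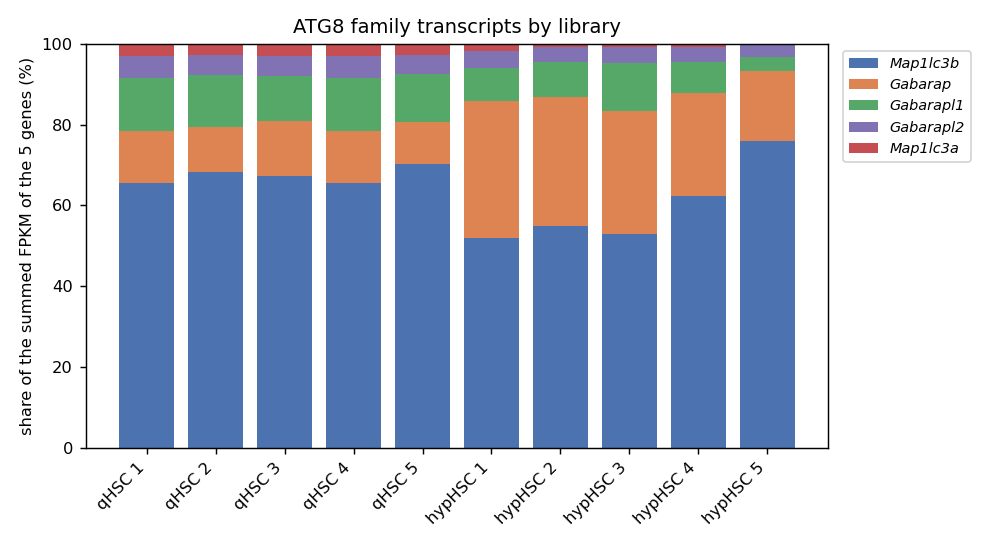
Share of each ATG8 family gene in the summed FPKM of the 5 genes (y axis, %), 1 bar for each of the 10 libraries. *Gabarap* takes 10.3% to 13.7% in qHSCs and 17.3% to 34.0% in hypHSCs, and *Map1lc3b* holds the largest share in every library.

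Of the cargo receptors, *Calcoco1* was a DEG and the ubiquitin-binding receptors were not. CALCOCO1 is a receptor for parts of the endoplasmic reticulum. *Calcoco1* (chr15:102615214-102630613, mm39) had 1442, 1854, 1786, 294 and 277 normalized counts in hypHSC 1 to 5 and 3169, 3613, 2582, 2264 and 3088 in qHSC 1 to 5. All hypHSCs were below all qHSCs, and within hypHSCs libraries 4 and 5 were far below 1 to 3 (-1.81 ± 0.55, adjusted p = 0.0190). The log2 fold change was -1.44 without hypHSC 4 and -1.41 without hypHSC 5, and the gene remained a DEG in both. *Sqstm1* (p62), which gathers ubiquitinated cargo and is itself degraded by autophagy, had 4289, 5729, 6668, 7443 and 4932 against 4133, 6257, 4354, 3801 and 5802. The groups of *Sqstm1* overlapped widely (0.26 ± 0.20, adjusted p = 0.327). Of the exon bases of *Sqstm1*, 24.4% lie under the opposite-strand gene *Mrnip*, whose reads cannot be told apart there. *Mrnip* had 3978 to 6466 normalized counts in hypHSCs and 2494 to 3452 in qHSCs. *Nbr1* had 1969, 2165 and 2575 in hypHSC 1 to 3, 954 and 1015 in hypHSC 4 and 5, and 1874 to 3237 in qHSCs (-0.61 ± 0.30, adjusted p = 0.119). *Optn* was 1197 to 2385 against 980.2 to 1469 (0.42 ± 0.22, adjusted p = 0.133), and *Tax1bp1* was 9376 to 14438 against 11871 to 16026 (-0.30 ± 0.17, adjusted p = 0.161). Per length, *Tax1bp1* was the most abundant receptor, at 56.8 ± 6.22 FPKM in hypHSCs and 89.4 ± 7.54 in qHSCs, followed by *Sqstm1* at 42.8 ± 11.2 and 45.3 ± 8.88.

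Both transcription factors were higher in hypHSCs. *Tfeb* (chr17:48047962-48103340, mm39) had 841, 883, 816, 384 and 104 normalized counts in hypHSC 1 to 5 and 57.0, 58.8, 48.0, 68.5 and 60.7 in qHSC 1 to 5. qHSCs lay within a narrow range and every hypHSC library was above it, hypHSC 5 by the least. The log2 fold change was 3.01 ± 0.55, or 8.05-fold (adjusted p = 0.000923), and it lay between 2.79 and 3.55 when any library was left out. *Tfe3* (chrX:7628900-7641440, mm39) had 834, 1202, 1276, 459.5 and 549 against 443, 294, 374, 365 and 274. hypHSC 4 was just above the highest qHSC, qHSC 1 (1.21 ± 0.31, adjusted p = 0.00767). *Tfe3* was no longer a DEG when libraries were scaled to the same total (0.85) or to 3 reference genes (0.27, adjusted p = 0.431), and with the hypHSCs at 12 weeks alone (0.99). Per length, *Tfeb* (0.761 ± 0.0847 FPKM) was under *Tfe3* (3.15 ± 0.714) in qHSCs, and in hypHSCs they stood at 6.44 ± 3.92 and 6.26 ± 3.23, which did not differ beyond their SD.

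Their relatives *Mitf* and *Tfec*, the other genes of the MiT/TFE family, were DEGs as well. *Mitf* had 219.6, 384, 340.1, 68.2 and 86.2 normalized counts in hypHSC 1 to 5 and 16.3, 24.7, 7.09, 42.8 and 1.5 in qHSC 1 to 5 (3.75 ± 0.81, adjusted p = 0.00275). *Tfec* had 373, 410.0, 379, 430.1 and 375 against 42.5, 7.67, 1.57, 84.7 and 4.50 (4.86 ± 0.85, adjusted p = 0.000694). Within qHSCs, libraries 1 and 4 had the most *Tfec* and also the most macrophage marker RNA. *Adgre1* (F4/80), a surface protein of macrophages, had 882 and 1579.6 normalized counts in qHSC 1 and 4 and 60.7 to 68.2 in the other qHSCs, and 1113 in hypHSC 5 against 5265 to 8099.7 in hypHSC 1 to 4. *Csf1r*, the receptor that macrophages need to survive, had 2883 and 3833 in qHSC 1 and 4 and 163 to 348 in the others, and 1833 in hypHSC 5 against 5275 to 24497 in hypHSC 1 to 4. hypHSC 5 was thus below qHSC 4 for *Adgre1* and below qHSC 1 and 4 for *Csf1r*. Over all 14 macrophage markers, however, hypHSC 5 had a sum of 1145850 normalized counts, against 61960.3 in qHSC 1 and 140624 in qHSC 4. *Tfeb* was highest in qHSC 4 (68.5) and had 57.0 in qHSC 1, against 48.0 to 60.7 in the others, and *Mitf* was highest in qHSC 4 (42.8) and next in qHSC 2 (24.7). Beside the group difference of all 4 factors stand the 14 macrophage markers, all of them DEGs, of which 9 did not overlap between the groups. Their part in the group difference was not tested.

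**Figure D4:**
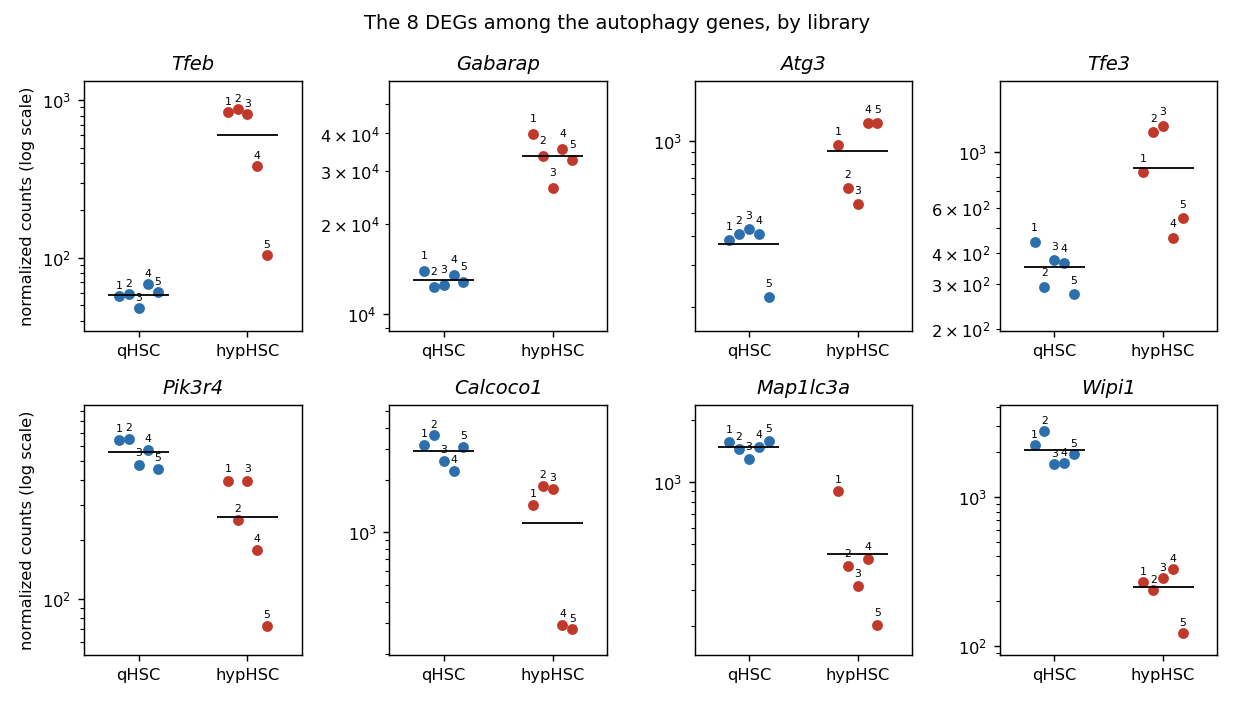
Normalized counts (y axis, log scale) of the 8 DEGs among the autophagy genes in the 5 qHSC and 5 hypHSC libraries, 1 numbered point per library, with the group mean as a bar. The groups do not overlap in any of the 8 panels, and hypHSC 5 is the lowest hypHSC library for *Tfeb* (104), *Pik3r4* (72.6), *Calcoco1* (277), *Map1lc3a* (203) and *Wipi1* (123).

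Ratios between related genes within a library do not depend on how libraries are scaled. For 10 pairs they were compared with an exact permutation test (two-sided, all arrangements of 5 against 5 libraries), in which the smallest possible p is 0.00794. The log2 ratio *Wipi1*/*Wipi2* was -1.90 ± 0.53 in hypHSCs and 1.44 ± 0.44 in qHSCs (mean ± SD, n = 5). *Gabarapl1*/*Gabarap* was -1.81 ± 0.35 against 0.074 ± 0.22, and *Gabarapl2*/*Gabarap* was -2.94 ± 0.22 against -1.30 ± 0.13. *Map1lc3a*/*Map1lc3b* was -6.53 ± 1.23 against -4.63 ± 0.12. All 4 ratios were lower in every hypHSC library than in every qHSC library, with differences of -3.34, -1.89, -1.64 and -1.90, and each had an exact permutation p of 0.00794 (adjusted p = 0.0198 over the 10 ratios). They passed under all 12 alternatives run for ratios: a pseudocount of 5, the hypHSCs at 12 weeks alone, and each library left out. None of these corrected for GC content. The *Map1lc3a* and *Map1lc3b* transcripts differ in it (65.4% and 56.0%), and their ratio was lowest in hypHSC 5 (-8.46). The repeated stretches of *Map1lc3b* and *Gabarapl2* and the antisense overlap of *Gabarapl1* limit these ratios as well.

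A further 2 ratios passed with overlapping groups. *Tfe3*/*Tfeb* was 0.74 ± 0.95 in hypHSCs and 2.55 ± 0.37 in qHSCs, and *Atg4b*/*Atg4c* was 0.028 ± 0.64 against 1.05 ± 0.50. In both, 1 library of a group crossed into the other: hypHSC 5 (2.38) for *Tfe3*/*Tfeb* and qHSC 4 (0.22) for *Atg4b*/*Atg4c*. The exact permutation p was 0.0238 for each (adjusted p = 0.0397 over the 10 ratios), with differences of -1.80 and -1.02. *Tfe3*/*Tfeb* no longer passed without qHSC 1 (-1.70), qHSC 3 (-1.71) or qHSC 4 (-1.84). *Atg4b*/*Atg4c* no longer passed without hypHSC 2 (-1.06), hypHSC 3 (-1.05), hypHSC 5 (-0.75), qHSC 1 (-0.91), qHSC 2 (-1.03), qHSC 3 (-0.96) or qHSC 5 (-0.98). Neither passed with the hypHSCs at 12 weeks alone (-1.45 and -1.25).

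The other 4 ratios did not pass. *Atg2a*/*Atg2b* was -0.25 ± 1.46 in hypHSCs and -1.07 ± 0.16 in qHSCs, and the spread of hypHSCs, from -2.43 in hypHSC 5 to 1.32 in hypHSC 2, covered the whole qHSC range (exact permutation p = 0.222, adjusted p = 0.317). Without hypHSC 5 this ratio passed, with a difference of 1.37. The differences were -0.15 for *Ulk1*/*Ulk2*, -0.12 for *Atg14*/*Uvrag* and 0.18 for *Atg16l1*/*Atg16l2*, with exact permutation p-values of 0.698, 0.730 and 0.643.

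**Figure D5:**
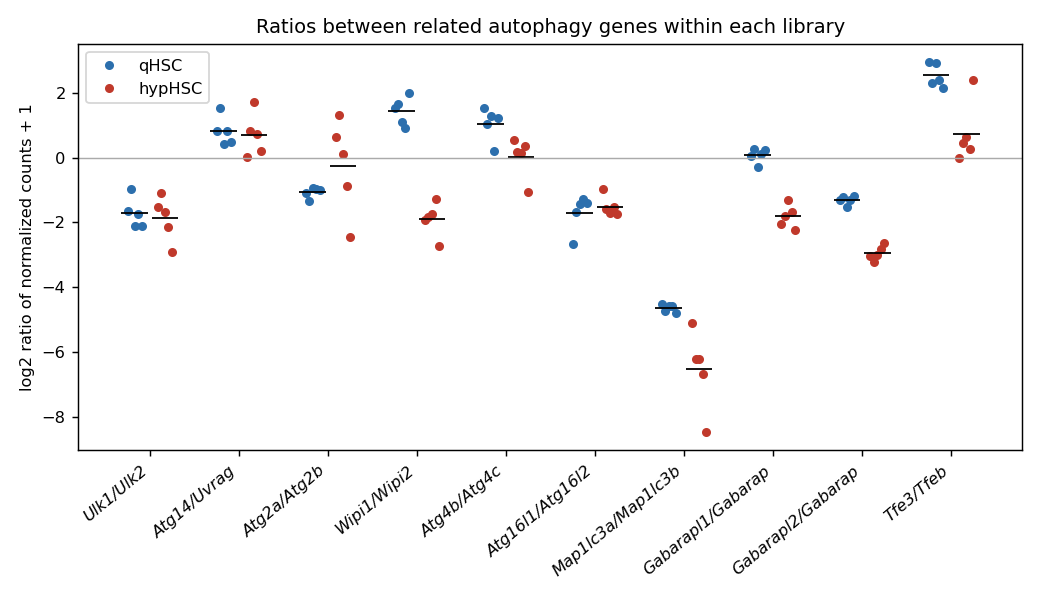
Log2 ratio of the normalized counts (each + 1, y axis) of 10 pairs of related autophagy genes, 1 point per library and a bar at each group mean. Both groups are apart without overlap for *Wipi1*/*Wipi2*, *Map1lc3a*/*Map1lc3b*, *Gabarapl1*/*Gabarap* and *Gabarapl2*/*Gabarap*.

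Genes that work beside these 37 were counted by the same test. Of 19 other autophagosome genes tested, 4 were higher and 1 was lower in hypHSCs (26.3%, against 39.5% of all genes tested), with a median log2 fold change of 0.30 against -0.20 over all genes. *Plekhm1*, an adaptor between ATG8 proteins and the lysosomal tethering machinery, had 1271, 1800.3, 1643, 841 and 514 normalized counts in hypHSC 1 to 5 and 321, 409, 146, 222 and 177 in qHSC 1 to 5 (2.21 ± 0.39, adjusted p = 0.000822). *Vamp8*, a SNARE of the fusion with the lysosome, was 18305 to 40599.6 against 6735 to 10271 (1.79 ± 0.25, adjusted p = 0.000137). *Rubcnl* (Pacer) was 174 to 379.6 against 0 to 61.6 (3.87 ± 0.97, adjusted p = 0.00676). Absence of overlap between the groups was a condition for naming these 3, as for the genes named from the next 2 lists.

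Of 17 other selective autophagy receptors and adaptors, 1 was higher and 3 were lower (23.5%, against 39.5% of all genes tested), with a median log2 fold change of -0.42. *Retreg1* (FAM134B) and *Ccpg1* are, like *Calcoco1*, receptors for the endoplasmic reticulum, and they went opposite ways. *Retreg1* had 259 to 845 normalized counts in hypHSCs and 26.8 to 69.3 in qHSCs (3.56 ± 0.40, adjusted p = 3.14e-05). *Ccpg1* had 678 to 1213 against 2029.7 to 3614 (-1.60 ± 0.22, adjusted p = 0.00013). *Stbd1*, which binds glycogen, had 27.9 to 217 against 489 to 1428 (-3.36 ± 0.55, adjusted p = 0.000484).

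Of 23 genes of nutrient sensing upstream of ULK and TFEB, 8 were higher and 2 were lower in hypHSCs, or 43.5% against 39.5% of all genes tested. *Fnip2*, a partner of folliculin, had 1579, 2392, 2412, 1555 and 842 normalized counts in hypHSC 1 to 5 and 94.1, 117, 49.6, 91.6 and 50.2 in qHSC 1 to 5 (4.42 ± 0.36, adjusted p = 3.21e-06). *Lamtor4*, a subunit of the Ragulator that anchors mTORC1 to the lysosome, was 6445 to 14597 against 1754 to 2919 (1.98 ± 0.23, adjusted p = 4.8e-05). *Rragd*, a Rag GTPase, was 17.5 to 60.04 against 159 to 182 (-1.996 ± 0.38, adjusted p = 0.00133). Here too, absence of overlap was a condition for naming them.

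The calls depended on the scaling of the libraries. Scaled to the same total, 2 of the 37 genes were higher (*Tfeb* and *Gabarap*) and 6 lower, with the median of all genes tested at -0.54. Over the 14630 genes tested, 2021 were then higher and 4223 lower. Scaled to 3 reference genes of the qPCR of the study (*Hprt*, *Pgk1* and *Actb*), 1 was higher (*Tfeb*, 2.08) and 19 were lower, with the median of all genes at -1.12. Over all 14630 genes, this scaling gave 1471 higher and 6988 lower. *Gabarap* was then 0.42 (adjusted p = 0.152) and *Atg3* 0.32 (adjusted p = 0.477), and neither was a DEG. *Tfeb*, *Wipi1*, *Map1lc3a* and *Calcoco1* kept their calls under all 22 alternatives.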

How the data were processed

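RNA of sorted cells was reverse-transcribed from its poly(A) tail, amplified and sequenced in pairs of 59-base reads without strand. The authors mapped the reads to mm39 with STAR, counted them per gene with featureCounts (Subread 1.5.0) on FAST DB annotations, and divided them by DESeq2 size factors. The deposited signal per gene is thus a normalized count, rounded to 2 decimals. Whole reads were recovered from it (99.998% to 100% of values within 0.0051) and used for depth, FPKM, DESeq2 1.42.0 and edgeR 4.0.16 (quasi-likelihood). Intervals of depth and the floor of 3 reads cover counting error only.

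A gene was tested if it had a symbol and if 5 or more of the 10 libraries reached 10 normalized counts. The groups were compared on log2(normalized count + 1) by limma 3.58.1 (trend) in R 4.3.3. Fold changes are differences of group means on that scale. The added 1 understates the change of low genes, but a library near the floor can also enlarge it. *Ambra1* was -2.27 on that scale, -0.60 with DESeq2 and -0.58 with edgeR. FPKM used the canonical GENCODE transcript, matched by symbol for 23185 of 25233 genes. The limma fit was tested on simulated counts with equal spread in both groups and no effect of GC content. Real spreads could differ: the highest over the lowest library for *Tfeb* was 8.46 in hypHSCs and 1.43 in qHSCs. The permutation test was checked on a small set of made-up values. All 37 genes are named, as are *Mitf*, *Tfec* and, of each other list, the 3 DEGs with the largest change among those without overlap and with a mean of at least 100. *Arhgap1*, *Cntd1*, *Slc35a5*, *Mrnip*, *Gm29253*, *Gm70302* and *1700101I11Rik* were named for their overlap after the values had been seen. The genes and lists were chosen with earlier results of these data known.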

Additional observations from a re-analysis of the deposited data

Results flagged for a closer look

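A library of a group was taken as far from the others when its gap to the nearest one, divided by the range of the group, exceeded Dixon's critical value for 5 samples. Of the 74 sets of 5 values (37 genes in 2 groups), 8 met this, where independent normal values give about 1 in 20, or 3.7. These were untransformed normalized counts of genes that share the same libraries. The number 3.7 is therefore a rough guide, and 8 against 3.7 is no test. In hypHSCs, hypHSC 5 was far above the others for *Rb1cc1* (1336 normalized counts against 439 to 565) and *Atg2b* (675 against 285 to 387), and far below them for *Atg4b* (333 against 1046 to 1182). hypHSC 4 was far above the others for *Atg12* (4013 against 2531 to 2762). In qHSCs, qHSC 3 was far below the others for *Gabarapl1* (10237 against 14355 to 15095) and *Gabarapl2* (4341 against 5329.5 to 5645). qHSC 5 was far below them for *Atg3* (221 against 382 to 427), and qHSC 1 far above them for *Atg2a* (228 against 172 to 186). No cause of these gaps was tested.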

How the results depend on the processing

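Over 22 alternatives, 735 of the 812 values of single genes kept their direction and their side of the thresholds, 43 turned sign, 10 lost and 24 gained a call. 4 genes (*Tfeb*, *Wipi1*, *Map1lc3a* and *Calcoco1*) kept both under every alternative. The count of DEGs among the 37 genes was 8 under most settings, 7 to 9 without each library in turn, 10 with DESeq2 or GC correction, 9 with edgeR and 7 with the hypHSCs at 12 weeks alone. Over all 14630 genes tested, DEGs numbered 5779 in the main test and 5241 to 5914 without each library in turn. They numbered 5861 with DESeq2, 5336 with edgeR and 5937 at 12 weeks alone. After GC correction there were 5730 of 14233 genes. The cause of the changes below was not tested.

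Scaled to 3 reference genes (median of all genes -1.12, DEGs of all genes 1471 higher and 6988 lower, against 2602 and 3177), 20 of the 37 were DEGs, 1 higher and 19 lower. Signs then turned for *Rb1cc1* (-0.52), *Atg101* (-0.36), *Atg14* (-0.81), *Uvrag* (-0.69), *Atg2a* (-0.20), *Wipi2* (-0.69), *Atg4c* (-0.63), *Atg5* (-0.096), *Atg7* (-0.12), *Atg12* (-0.71), *Map1lc3b* (-0.94), *Sqstm1* (-0.68) and *Optn* (-0.52). Scaled to the same total (median of all genes -0.54, DEGs 2021 higher and 4223 lower), 2 of the 37 were higher, and signs turned for *Atg14* (-0.23), *Uvrag* (-0.11), *Wipi2* (-0.11), *Atg4c* (-0.045), *Atg12* (-0.12), *Map1lc3b* (-0.35) and *Sqstm1* (-0.10).

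Genes near no change turned sign elsewhere. *Ulk2* was 0.11 with equal upper quartiles, 0.023 with TMM, 0.061 with DESeq2, 0.059 with edgeR, 0.021 with the hypHSCs at 12 weeks and 0.18 after GC correction. *Atg2b* was 0.032, 0.058, 0.051, 0.14 and 0.090 with upper quartiles, DESeq2, edgeR, 12 weeks and GC correction, and *Ulk1* 0.14 after GC correction. Without each library in turn, *Ulk1* ranged from -0.34 to 0.072, *Ulk2* from -0.10 to 0.075, *Atg13* from -0.41 to 0.12, *Atg2b* from -0.31 to 0.0046 and *Map1lc3b* from -0.24 to 0.17.

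Among the ratios, *Tfe3*/*Tfeb* no longer passed with a pseudocount of 5 (-1.73) or at 12 weeks (-1.45) and ranged from -2.21 to -1.61 without each library. *Atg4b*/*Atg4c* no longer passed at 12 weeks (-1.25) and ranged from -1.23 to -0.75. *Atg14*/*Uvrag* was 0.067 at 12 weeks and ranged from -0.37 to 0.057, *Ulk1*/*Ulk2* from -0.35 to 0.11, *Atg16l1*/*Atg16l2* from -0.062 to 0.29 and *Atg2a*/*Atg2b* from 0.43 to 1.37, which passed without hypHSC 5.

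The replicate numbers did not pair the samples: same-numbered libraries deviated together with correlations of 0.066, 0.073, 0.0082, 0.062 and 0.13. With the replicate number as a block, 8 of the 37 genes were DEGs, 4 higher and 4 lower, and 5786 of all genes were DEGs. The adjusted p of *Gabarapl1* was then 0.0664. *Ambra1* was under the floor of 3 reads in hypHSC 4 and 5. Blocked ratios were not run, since 5 pairs cannot pass by sign changes.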
